A study of Mus musculus with 17 samples.

Results

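Map1a, Map1b, Map1s, Tmod1, Tmod2 and Tmod3 were followed in mouse lung by RNA sequencing of whole tissue. These 6 genes, of 54146 in the deposited tables, are the large MAP1 microtubule proteins and the tropomodulins that cap actin filaments. They were taken by symbol from the FPKM table and joined to the counts by gene ID. Map1b and Tmod2 had been chosen by their day 14 fold changes, since both stood higher in Clic4 knockout (KO) than in wild-type (WT) lung then, and the other 4 genes are their relatives, so the day 14 genotype values are given as a description without a test. All 6 passed the filter on low counts, which left 19557 genes.

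The 17 libraries were WT at day 0 (n = 4), Clic4 KO at day 0 (n = 2), WT at day 14 (n = 6) and Clic4 KO at day 14 (n = 5). Mice of every group carry the strain label FVB/6DT1, and 6DT1 also names a cell line from a mouse mammary tumour. They were 6 weeks old at day 0 and 8 weeks old at day 14. The sample titles call the day 0 libraries controls, so a treatment of the day 14 mice may lie between the days, and day, age and any such treatment cannot be told apart. The labels used here name none, nor which cells lost Clic4 or by what allele. They do not tie a library to an animal either, and the series' design text gives other group sizes, so a p-value reflects only how these samples spread, and that spread may be technical. Clic4, a chloride intracellular channel protein, was lower in every KO library (301.5 to 399.1 CPM) than in every WT library (924.7 to 1281 CPM), where CPM is counts per 1000000 counted after scaling of library sizes. All 10 lung epithelium markers had counts in all 17 libraries, among them surfactant protein C (Sftpc, 10200 to 14300 CPM). Library totals ran from 20607811 to 35743830 counts.

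Microtubules are hollow polymers of tubulin, and MAP1 proteins bind along them and stabilise them. Each is made as a precursor that is cut into a heavy and a light chain. MAP1B is best known from growing axons, MAP1A from mature neurons, and MAP1S is found in many tissues. Tropomodulins sit on the slow-growing (pointed) end of actin filaments and bind tropomyosin, and so set filament length. TMOD1 is the tropomodulin of red cells and striated muscle, TMOD2 is found mainly in neurons, and TMOD3 is found in most cells.

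The genes lie on 5 chromosomes of GRCm38 by the GENCODE M21 annotation. Map1b (ENSMUSG00000052727.6) is on the minus strand of chromosome 13 from 99421446 to 99516540, Map1a (ENSMUSG00000027254.13) on the plus strand of chromosome 2 from 121289600 to 121310832, and Map1s (ENSMUSG00000019261.3) on the plus strand of chromosome 8 from 70905932 to 70917529. Tmod2 (ENSMUSG00000032186.15, chromosome 9, 75565621 to 75611325) and Tmod3 (ENSMUSG00000058587.9, 75497707 to 75559657) are neighbours on the minus strand, 5.96 kb apart with 0 annotated genes between them. Tmod1 (ENSMUSG00000028328.13, plus strand, 46038935 to 46116032) is on chromosome 4, the chromosome of Clic4, at 89.18 Mb from it. The transcripts of Tmod1 share 1287 exon bases, 32.6% of its exon length, with Tstd2 on the other strand. Those of Map1a share 272 bases, 2.24%, with Ppip5k1 on the other strand. Whether the authors counted by strand is not given in the sources used here, so reads of these partners may be split between them. The other 4 genes shared 0 exon bases with another gene, and no stretch of 50 bases was found in transcripts of more than 1 of the 6 genes.

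The promoters of Map1b and Tmod2 are shown because these are the pair that stood higher together in day 14 KO lung. Each run is the 250 bases before the RefSeq transcription start (GRCm38.p6), 5′ to 3′ on the minus strand of the gene, at chr13:99516603-99516852 for Map1b and at chr9:75611326-75611575 for Tmod2. Capitals mark a TATAAA and a GGGCGG match, the letters of a TATA box and of a GC box.
Map1b: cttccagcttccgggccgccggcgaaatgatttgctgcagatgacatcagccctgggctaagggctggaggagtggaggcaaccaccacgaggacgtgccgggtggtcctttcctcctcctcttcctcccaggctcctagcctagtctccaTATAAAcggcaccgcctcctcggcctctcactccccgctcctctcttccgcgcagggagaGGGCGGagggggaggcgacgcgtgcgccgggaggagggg
Tmod2: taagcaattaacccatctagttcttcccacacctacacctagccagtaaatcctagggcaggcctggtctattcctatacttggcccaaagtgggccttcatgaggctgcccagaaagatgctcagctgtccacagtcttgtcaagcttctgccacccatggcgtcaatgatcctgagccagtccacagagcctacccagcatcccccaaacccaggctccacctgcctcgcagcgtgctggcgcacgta

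The promoters of Map1b and Tmod2 had little in common in these letters. In Map1b TATAAA began 99 bases before the start, and GGGCGG was found on the gene's strand both in the printed run and in the first 50 bases after the start. Neither was found in Tmod2 on either strand, and the cyclic AMP response element TGACGTCA and the CArG box were found in neither gene. Over 32851 RefSeq promoters of the same 300 bases, 13.6% held TATAAA, 35.7% GGGCGG, 1.79% TGACGTCA and 1.63% a CArG box, each searched on both strands. The 300 bases of Map1b had a GC content of 65.7% with 23 CpG, and those of Tmod2 56.3% with 9 CpG, against medians of 52.7% and 7 CpG over all promoters. Map1a and Tmod1 each held 4 GC boxes and Map1s held 2, and the second RefSeq start of Tmod2 held none of the 4 motifs.

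Tmod3 had the highest level per transcript length of the 6 genes and Map1a the lowest. On the FPKM scale (fragments per kilobase and per 1000000), which compares levels between genes, Tmod3 averaged 66.4 ± 3.84 (SD, n = 17), Tmod1 27.3 ± 2.14, Map1s 12.2 ± 1.17, Tmod2 6.89 ± 1.02, Map1b 3.26 ± 0.458 and Map1a 2.16 ± 0.352. This order held in 17 of 17 libraries for every neighbouring pair, and only the ranges of Map1b and Map1a overlapped (2.70 to 4.10 against 1.71 to 2.91). The order rested on the transcript lengths used. With CPM divided by the total exon length instead, Tmod3 (20.6 CPM per kb) and Tmod1 (20.4) had overlapping ranges, Tmod2 (5.44) stood above Map1s (4.64) with overlap, and Map1b (2.34) and Map1a (1.71) still overlapped. The length implied by counts and FPKM was 3431 to 3482 bases for Tmod3, whose exons cover 11151 bases in all.

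**Figure D1:**
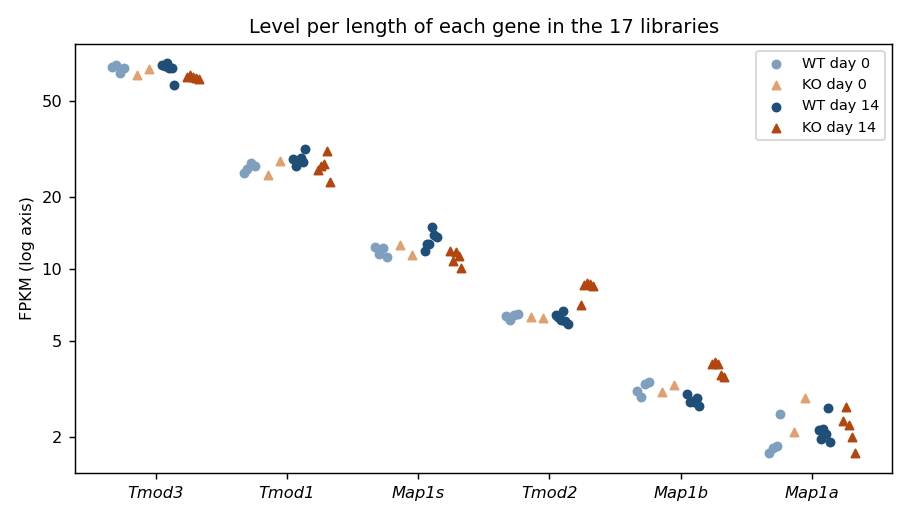
Level per length (FPKM, log axis) of the 6 genes in each of the 17 libraries, with genotype and day by colour and marker. Tmod3 lies near 66.4 and Map1a near 2.16, and only the ranges of Map1b and Map1a overlap.

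Among the MAP1 genes, Map1b stood higher in the KO lungs at day 14 and not at day 0. At day 0 its level was 34.95, 33.75, 36.47 and 37.58 CPM in the 4 WT libraries and 34.94 and 38.45 CPM in the 2 KO libraries. At day 14 it was 30.79 to 34.41 CPM in the 6 WT libraries, with a median of 32.33 CPM, and 45.41, 47.30, 44.72, 40.10 and 41.39 CPM in the 5 KO libraries. The lowest day 14 KO library was above every library of the other 3 groups, while the day 0 groups overlapped.
Over the day 14 libraries KO averaged 43.78 ± 2.96 CPM (SD, n = 5) and WT 32.59 ± 1.45 CPM (n = 6), a log2 difference of 0.43 (SE 0.0533) or 1.34-fold, given as a description. At day 0, which played no part in the choice, the log2 difference was 0.04 (SE 0.0764, 95% interval -0.12 to 0.20, edgeR quasi-likelihood adjusted p = 0.949).

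Map1a was the MAP1 gene with the largest day 0 difference. Its level was 17.40, 18.17, 18.46 and 18.74 CPM in WT and 21.21 and 26.80 CPM in KO. Both KO libraries were above all 4 WT libraries, and KO day 0 library 2 was the higher of them. The means were 24.01 ± 3.95 CPM (n = 2) and 18.19 ± 0.574 CPM (n = 4), a log2 difference of 0.40 (SE 0.125, 95% interval 0.14 to 0.66) that did not pass over all genes (edgeR adjusted p = 0.619). Without KO day 0 library 2 it was 0.22, and without library 1 it was 0.56. On the FPKM scale the groups overlapped, with WT at 1.71, 1.80, 1.83 and 2.5 and KO at 2.09 and 2.91. WT day 0 library 4 was the highest of the 4 on both scales, but lay far above the others only in FPKM. At day 14 Map1a ranged from 18.69 to 22.04 CPM in WT with a median of 19.90 CPM. The KO libraries had 23.34, 27.48, 22.45, 20.57 and 17.75 CPM, a wider range that took in the WT values.

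Map1s varied least among the MAP1 genes. It was 37.38, 35.82, 37.01 and 33.78 CPM in WT and 37.16 and 36.48 CPM in KO at day 0, a log2 difference of 0.03 (SE 0.0667, 95% interval -0.11 to 0.17, edgeR adjusted p = 0.957). At day 14 it was 36.92 to 41.09 CPM in WT (median 38.07 CPM) and 37.29, 36.55, 35.23, 35.81 and 32.83 CPM in KO. All but 1 of the KO libraries lay below the WT range, the reverse of Map1b. The FPKM ratio of Map1b to Map1s was 0.346 ± 0.0217 (n = 5) in day 14 KO, against 0.216 ± 0.023 (n = 6) in day 14 WT, 0.270 ± 0.0228 (n = 4) in day 0 WT and 0.266 ± 0.0304 (n = 2) in day 0 KO. The ratio takes in the lengths used for FPKM. At day 14 the length of Map1s implied by counts and FPKM was 2684 to 3109 bases in WT (median 2965) and 3033 to 3323 bases in KO (median 3174).

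Among the tropomodulins, Tmod2 stood higher in the day 14 KO lungs. At day 0 its level was 60.92, 55.02, 59.94 and 56.89 CPM in WT and 56.96 and 59.82 CPM in KO. At day 14 it was 53.79 to 61.42 CPM in WT (median 59.55 CPM) and 65.58, 78.19, 79.39, 79.66 and 76.45 CPM in KO. Every day 14 KO library was above every other library, with KO day 14 library 1 the lowest of them, and the other 3 groups overlapped. The day 14 means were 75.85 ± 5.88 CPM (n = 5) and 58.53 ± 2.91 CPM (n = 6), a log2 difference of 0.37 (SE 0.0543) or 1.3-fold, given as a description. At day 0 the log2 difference was 0.00 (0.005, SE 0.078, 95% interval -0.16 to 0.17, edgeR adjusted p = 0.996).

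Tmod3, the neighbour of Tmod2 and the main tropomodulin of the lung on the FPKM scale, lay slightly lower in day 14 KO. It was 238.9, 244.0, 225.9 and 234.9 CPM in WT and 220.3 and 237.9 CPM in KO at day 0, a log2 difference of -0.04 (SE 0.0734, 95% interval -0.20 to 0.11, edgeR adjusted p = 0.946). At day 14 it was 200.0 to 251.9 CPM in WT (median 241.4 CPM) and 213.5, 226.6, 214.8, 216.2 and 216.6 CPM in KO. The groups overlapped only through WT day 14 library 6, the 1 with 200.0 CPM. Per length, Tmod2 reached 0.132 ± 0.011 of the FPKM of Tmod3 (n = 5) in day 14 KO and 0.0923 ± 0.00576 (n = 6) in day 14 WT, while at day 0 the ratio was 0.0930 ± 0.00469 (n = 4) in WT and 0.0953 ± 0.0041 (n = 2) in KO.

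Tmod1 overlapped between the genotypes at both days. At day 0 it was 74.36, 77.15, 80.43 and 77.92 CPM in WT and 72.77 and 84.24 CPM in KO, a log2 difference of 0.02 (SE 0.086, 95% interval -0.16 to 0.20, edgeR adjusted p = 0.981). At day 14 it was 78.45 to 91.13 CPM in WT (median 85.12 CPM) and 75.06, 79.14, 80.01, 90.32 and 69.13 CPM in KO. The KO libraries held both the lowest of the 17 values and 1 of the highest.

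**Figure D2:**
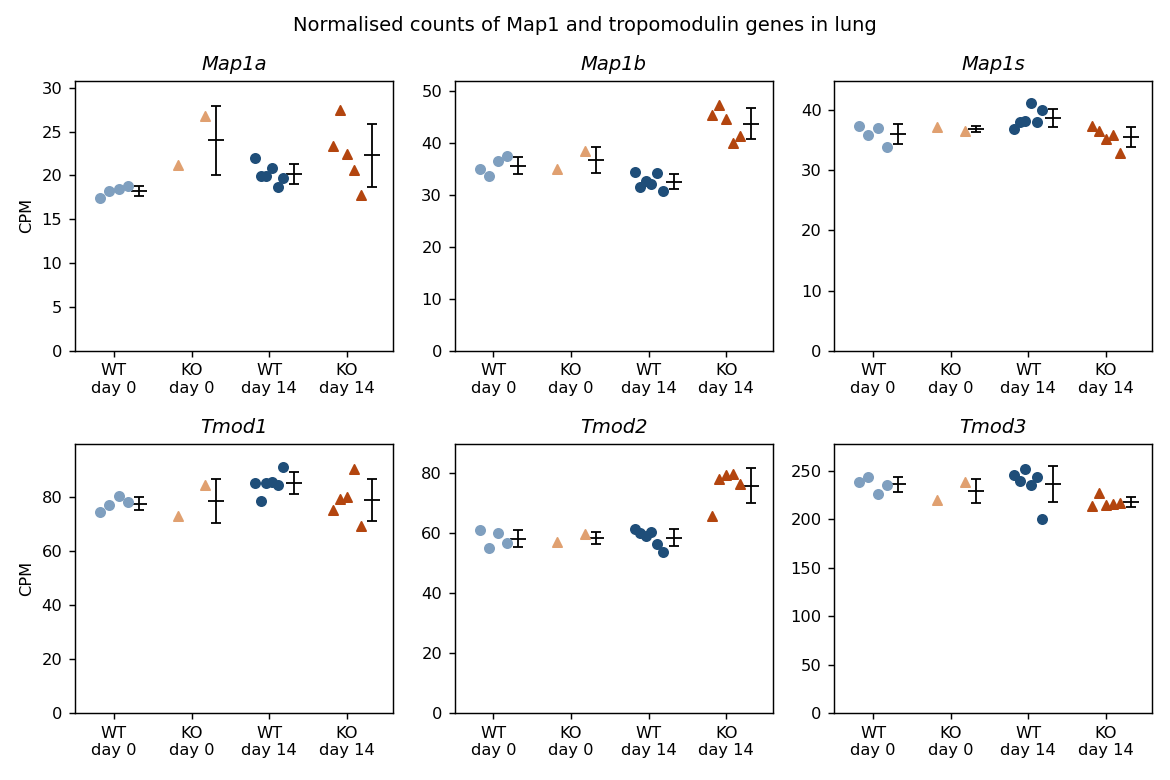
Scaled counts (CPM, linear axis from 0) of the 6 genes in the 4 groups, 1 point per library, with the mean and SD beside each group. For Map1b and Tmod2 the 5 day 14 KO libraries lie above all others, from 40.10 and from 65.58 CPM, and for Map1a both day 0 KO libraries lie above the day 0 WT libraries.

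Over the 6 genes, 0 were called at day 0 by edgeR (adjusted p under 0.05), against 0.0256% of all genes tested. DESeq2 and limma-voom called 0 of them as well, and 1, Map1a, had an unadjusted p under 0.05, as had 6.74% of all genes. Map1a was also the 1 gene of 6 whose day 0 groups did not overlap, a share that stands beside 18% of all genes with groups of 4 and 2, and 8.88% that were higher in KO. Values were above 0 for 5 of the 6 with a median log2 of 0.03, and the median of all genes was 0.00 (0.00073). At day 14, the contrast by which Map1b and Tmod2 were chosen, these 2 of 6 were called higher and none lower, beside 0.107% of all genes called in either direction and 0.0665% called higher. These 2 of 6 did not overlap, beside 0.977% of all genes in either direction and 0.583% higher; nothing is read from these shares, since the contrast chose the genes. The log2 values of the other 4 at day 14 were 0.15 for Map1a (SE 0.0883), -0.12 for Map1s (SE 0.0468), -0.11 for Tmod1 (SE 0.0603) and -0.12 for Tmod3 (SE 0.0514). With log2(FPKM + 1) Map1a stood at 0.02 (0.018) and Map1s at -0.23 (-0.225), and with log2(FPKM + 0.1) at 0.02 (0.023) and -0.24. Without KO day 14 library 2 the Map1a value was 0.06 (0.059), and without KO day 14 library 5 the Tmod1 value was -0.07 (-0.069). In whole lung, fewer cells of a type and less RNA per cell cannot be told apart.

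The change from day 0 to day 14 uses the same day 14 libraries by which Map1b and Tmod2 were chosen, so it too is a description. In KO, Tmod2 was higher at day 14 in every library, with a log2 difference of 0.38 (SE 0.0767), and so was Map1b, with 0.26 (0.255, SE 0.0747). Of the 6 genes edgeR called 0, beside 0% of all genes, and limma-voom called 0. DESeq2 called 1, Tmod2, beside 93 over all genes. Nothing is read from these counts. The 2 of 6 without overlap stand beside 11.8% of all genes, 5.6% higher at day 14, and the same 2 had an unadjusted p under 0.05, beside 9.05% of all genes. Map1a, Map1s, Tmod1 and Tmod3 stood at log2 values of -0.10, -0.05, 0.00 (0.005) and -0.08 (-0.075) in KO.

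In WT the values between the days were nearer to 0 for Tmod2 than in KO and of the other sign for Map1b. Map1b stood at a log2 value of -0.13 (SE 0.0568), Map1a at 0.15, Tmod1 at 0.13, Map1s at 0.10, Tmod2 at 0.01 and Tmod3 at 0.00. By edgeR, DESeq2 and limma-voom 0 of 6 were called, beside 0% of all genes by edgeR. Map1b alone had an unadjusted p under 0.05, beside 9.06% of all genes, and 0 of 6 had groups that did not overlap, beside 2.58% of all genes. The difference between the genotype effects of the 2 days, which contains the day 14 contrast and is a description for that reason, was 0.39 (SE 0.0939) for Map1b and 0.37 (SE 0.0957) for Tmod2. For Map1a it was -0.26 (-0.255, SE 0.154), for Map1s -0.15, for Tmod1 -0.13 and for Tmod3 -0.08 (-0.075). edgeR called 0 of 6 there, beside 0% of all genes, and so did DESeq2 and limma-voom; 2 of 6, Map1b and Tmod2, had an unadjusted p under 0.05, beside 4.55% of all genes.

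**Figure D3:**
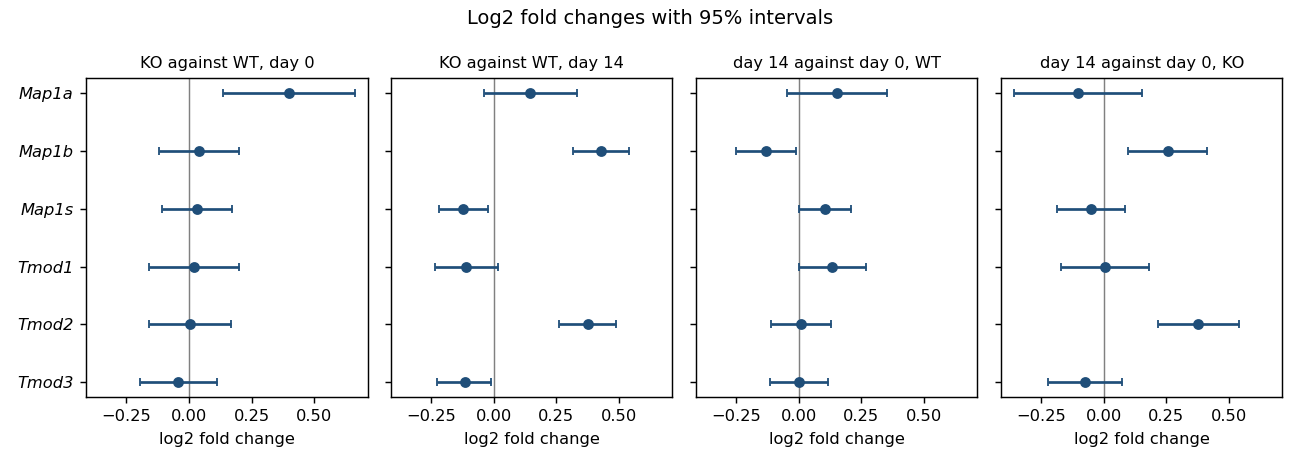
Log2 fold changes of the 6 genes in 4 comparisons, with 95% intervals from the spread between libraries; the 3 panels with day 14 libraries are descriptions. At day 0 the intervals of all genes but Map1a span 0, and at day 14 Map1b (0.43) and Tmod2 (0.37) lie apart from the other 4, whose values run from -0.12 to 0.15.

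The partners of these proteins were read from 6 lists: other microtubule-associated proteins, tubulins and the enzymes that modify them, kinases and other regulators of MAP1B, proteins that cap, cut or bind actin filament ends, tropomyosins with actins, and the spectrin membrane skeleton. Of their 104 genes tested, edgeR called 0 in each of the 5 comparisons, with unadjusted p under 0.05 for 8 genes at day 0 (7.69%, beside 6.74% of all genes) and for 16 at day 14 (15.4%, beside 8.95%). limma-voom called 0 of them in every comparison. DESeq2 called 1 of them, Lmod1 at day 0 (adjusted p = 0.0266), which edgeR did not call (adjusted p = 0.269). Over all genes DESeq2 called 26 at day 0.
Lmod1 encodes leiomodin 1, a smooth muscle relative of the tropomodulins that starts new actin filaments. It had 13.5, 15.1, 15.5 and 13.0 CPM in day 0 WT and 21.2 and 21.0 CPM in day 0 KO. The log2 difference was 0.57 (SE 0.124), and the groups did not overlap, as for 18% of all genes. At day 14 it overlapped, with 14.4 to 18.1 CPM in WT and 14.9 to 21.6 CPM in KO.

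Of 22 other microtubule-associated genes 13 were positive at day 14, with a median log2 of 0.03. The smallest p-values were those of the tau gene Mapt (0.21, SE 0.0581, adjusted p = 0.271) and of Stmn2, a stathmin that takes up free tubulin (0.26, SE 0.0766, adjusted p = 0.317), both known mostly from neurons. At day 14 Mapt had 218 to 287 CPM in WT and 286 to 323 CPM in KO, and Stmn2 45.4 to 64.6 and 63.3 to 68.7 CPM. The 21 nerve and glia markers described below summed to 103.2 to 121.8 CPM in WT and 104.9 to 118.7 CPM in KO. CPM takes no account of transcript length, so these values do not compare levels between genes. Which cells carried Mapt and Stmn2 was not tested. Of 17 tubulin genes 10 were positive, with a median of 0.01 (0.00683), and Tubb4b stood at 0.12 (SE 0.0528). Of 18 regulators of MAP1B 6 were positive, with a median of -0.04 (-0.0366). None of these passed over all genes by edgeR.

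On the actin side, 7 of 21 end-binding and severing genes were positive at day 14, with a median log2 of -0.01. The capping protein subunit Capzb, which acts at the other filament end, stood at 0.16 (0.155, SE 0.0536), and the muscle cofilin Cfl2 at -0.13 (SE 0.0497). Of 10 tropomyosin and actin genes 5 were positive, with a median of 0.00 (0.00463). The smallest p-values were those of the smooth muscle genes Actg2 (0.42, SE 0.116, adjusted p = 0.268) and Tpm2 (0.29, SE 0.0816, adjusted p = 0.271). Of 16 membrane skeleton genes 8 were positive, with a median of 0.01 (0.00787). No gene of these 3 lists passed over all genes by edgeR. Of the 12 smooth muscle markers described below, 6 were positive at day 14, with a median log2 of 0.03 (0.0274). An unadjusted p under 0.05 was found for 2 of the 12, beside 8.95% of all genes.

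**Figure D4:**
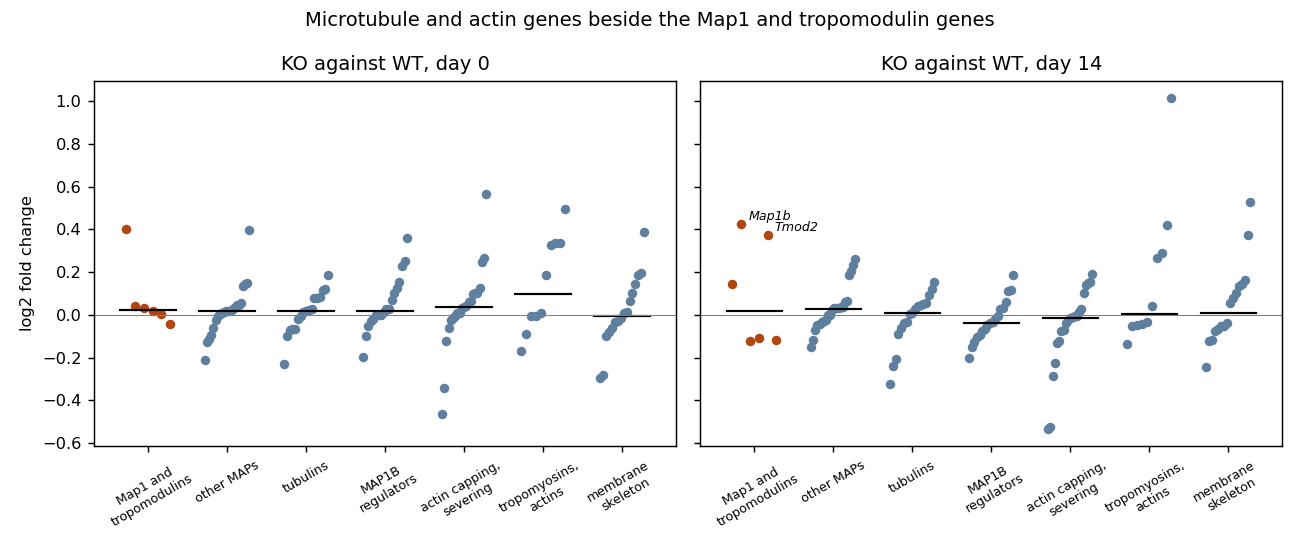
Log2 fold changes, KO against WT, of the 6 genes and of each tested gene of the 6 partner lists at day 0 and day 14, with a bar at the median of each list. The 6 list medians run from -0.003 to 0.099 at day 0 and from -0.037 to 0.027 at day 14, and Map1b and Tmod2 are named at day 14.

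Markers of other cells that could carry these genes were read beside them. The 21 nerve and glia markers summed to 104.9 to 118.7 CPM in day 14 KO and 103.2 to 121.8 CPM in day 14 WT, and these groups overlapped. Over all 17 libraries, of both days, Mbp had 55.1 to 72.9 CPM, Th had 0 counts in 14 of 17 libraries, Nefm in 4 and Elavl3 in 2. Of the 16 nerve and glia genes tested edgeR called 0 at either day, with 10 positive at day 14 and a median log2 of 0.11 (0.105). Of these 16, 3 had an unadjusted p under 0.05 at day 0, beside 6.74% of all genes, and 1 at day 14, beside 8.95%. The part of nerve and glia in the Map1b and Tmod2 group differences was not tested, and correlations within groups are given below. The 17 heart muscle markers, of interest for Tmod1, summed to 1040 to 1598 CPM in day 14 KO and 1324 to 2424 CPM in day 14 WT. Only 1 of 17 was positive, the median was -0.29 (-0.288), and the troponin gene Tnnt2 stood at -0.58 (SE 0.138). In the mean log2 CPM of this list WT day 14 library 5 lay 0.59 above its group mean, and library 4 came next at 0.09. Tnnt2 had 194 CPM in that library 5, 104 to 136 CPM in the rest of its group and 78 to 105 CPM in day 14 KO. Of these 17 markers edgeR and limma-voom called 0, and DESeq2 called Tnnt2 and Myom2, beside 109 over all genes. Of the 17, 8 had an unadjusted p under 0.05, beside 8.95% of all genes. The part of heart muscle in the Tmod1 group differences was not tested, and its correlation within groups is given below.

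At day 0 fibroblast markers summed to 5534 to 5682 CPM in KO and 4418 to 5465 CPM in WT, and the groups did not overlap. The lung epithelium markers did not overlap either, at 38520 to 39860 CPM in KO and 33500 to 37410 CPM in WT, and 8 of 10 were positive with a median log2 of 0.10 (0.0988). Smooth muscle markers, beside which Lmod1 is read, summed to 2145 to 2351 CPM in KO and 1977 to 2232 CPM in WT, with overlap, and 10 of 12 were positive with a median log2 of 0.16 (0.155). Endothelial markers were lower in both day 0 KO libraries (6514 to 6813 CPM) than in WT (6853 to 7463 CPM). Taken singly, 18% of all genes tested had day 0 groups that did not overlap. No gene of these 4 lists was called at day 0 by edgeR, DESeq2 or limma-voom. An unadjusted p under 0.05 was found for 2 of 16 fibroblast, 2 of 10 lung epithelium, 3 of 12 smooth muscle and 4 of 14 endothelial genes. The share over all genes was 6.74%. The part of these 4 lists in the Map1a and Lmod1 group differences was not tested. At day 14 edgeR called 1 endothelial gene, Car4, a carbonic anhydrase of lung capillaries (0.28, SE 0.0471, adjusted p = 0.018). The list as a whole did not go that way. Only 4 of its 14 genes were positive, with a median log2 of -0.07 (-0.0723), and 6 had an unadjusted p under 0.05, beside 8.95% of all genes. Between the days in KO, DESeq2 called Eln of the fibroblast list (-0.77, adjusted p = 0.0312) and Smtn of the smooth muscle list (-0.38, adjusted p = 0.0367), beside 93 over all genes. By edgeR neither was called (adjusted p = 0.241 and 0.211).

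Map1b and Tmod2 did not vary together within the groups. After the group means were removed, their log2 CPM had Pearson's r = 0.03 and Spearman's rho = 0.11 over 17 libraries (permutation within groups, two-sided, p = 0.938 for r). Across the 15 pairs of these genes none passed after adjustment over all 51 correlations computed. The nearest was Map1a with Map1b (r = 0.70, rho = 0.68, permutation p = 0.0154, adjusted p = 0.393), which stood at r = 0.61 without the 2 KO day 14 libraries farthest from the median of Map1a. Map1b and the nerve and glia score had r = 0.61 (rho = 0.55, permutation p = 0.0261, adjusted p = 0.444). Tmod2 and that score had r = -0.29 (permutation p = 0.3). Without the 2 libraries farthest from the median score, KO day 14 library 1 and WT day 0 library 1, r was 0.63 (0.634) for Map1b and 0.10 (0.097) for Tmod2. With the heart muscle score Map1b had r = 0.54 (permutation p = 0.0417, adjusted p = 0.532) and Tmod1 r = -0.08 (permutation p = 0.782). Map1a and the fibroblast score had r = 0.35 (permutation p = 0.295), and r = -0.10 without the 2 libraries farthest from the median score.

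Tmod1 was low in libraries with more red cell RNA. Its deviations from the group means fell as the score of the red cell list rose, with r = -0.81 and rho = -0.79 (permutation p = 0.00067, adjusted p = 0.0342), the 1 of 51 correlations that passed. Without the 2 libraries with the most extreme scores, KO day 14 library 5 and WT day 0 library 1, r was -0.71. The adjusted call was lost when any 1 of 13 libraries was left out, and among the 11 day 14 libraries alone (r = -0.81, adjusted p = 0.462), while r stayed between -0.86 and -0.70. The red cell markers summed to 5806 to 13220 CPM in day 0 WT, 6477 to 14040 CPM in day 0 KO, 6844 to 13160 CPM in day 14 WT and 7730 to 31870 CPM in day 14 KO. The highest sum and the lowest Tmod1 value were both in the day 14 KO group.

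**Figure D5:**
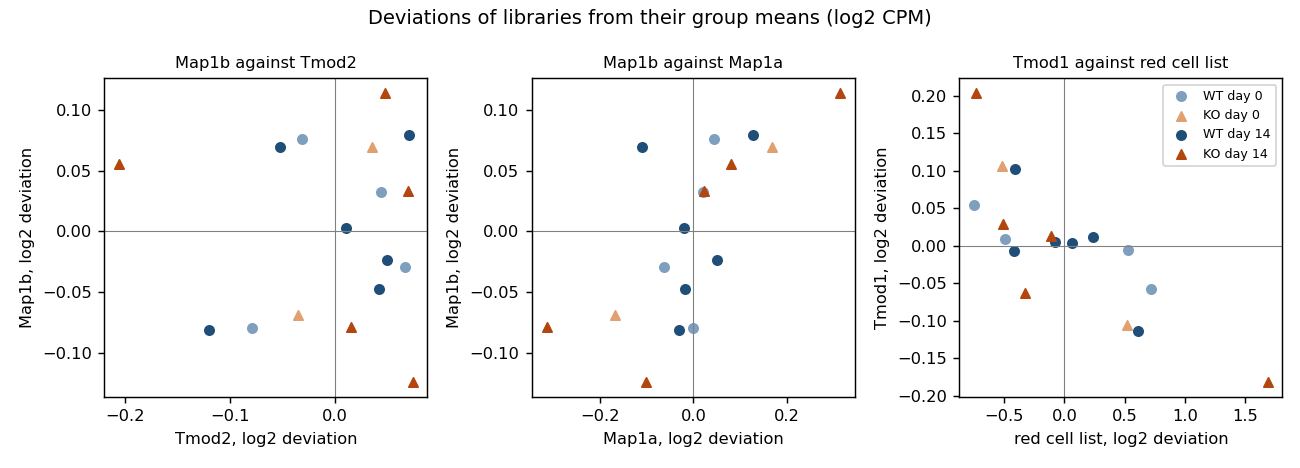
Deviation of each library from its group mean in log2 CPM, for Map1b against Tmod2, Map1b against Map1a, and Tmod1 against the mean of the red cell list. The points scatter without trend in the left panel (r = 0.03), rise in the middle panel (r = 0.70) and fall in the right panel (r = -0.81).

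Across all 17 libraries with the group differences left in, the genes most like Map1b in log2 CPM, among 13787 ranked, were Lpp (Pearson r = 0.88), Cdk19 (0.87) and Dnah9 (0.82). Those most like Tmod2 were Cbx5 (0.91), Hipk2 (0.88) and Elk4 (0.85). Tmod2 stood at rank 5 for Map1b and Map1b at rank 8 for Tmod2 (r = 0.79, rho = 0.67), which restates the day 14 KO values by which both were chosen. Genes most like the others were Asap3 (0.81), Ltbp1 (0.77) and Mns1 (0.77) for Map1a, Eva1b (0.87), Dus1l (0.86) and Pcgf2 (0.80) for Map1s, Per2 (0.90), Reck (0.89) and Pear1 (0.88) for Tmod1, and Dhx15 (0.91), Aebp2 (0.90) and Ptpn12 (0.90) for Tmod3. Map1s ranked among the genes least like Map1b, at 13654 of 13787 (r = -0.58).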

How the data were processed

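RNA of 17 lung libraries had been sequenced. Per the deposited files, each library has a column of expected counts, a unit read from the values (13.86 to 17.14% of genes not whole). The authors also deposited a joint FPKM table. Tools in the submitters' processing notes are RSEM 1.3.0, STAR 2.5.3 and limma 3.38.3, and the build is mm10; annotation and filters are not given in the sources used here. Expected counts were rounded. edgeR 4.0.16 in R 4.3.3 (filterByExpr, TMM, all 4 groups in 1 robust quasi-likelihood fit) gave adjusted p by Benjamini-Hochberg over 19557 genes, with calls under 0.05; SE is the absolute log2 fold change over the root of F. DESeq2 1.42.0, limma-voom and limma 3.58.1 on log2(FPKM + 1) were alternatives. In a simulated day 0 comparison over 19557 genes, 34% of genes changed by log2 0.5 and 85% of those changed by 1 were recovered. Red cell, nerve and other scores are means of log2 CPM (prior count 2), and correlations used 100000 permutations within groups. Named were the 6 genes, Clic4, called genes of lists, otherwise at most 2 per list by p, and for each gene the 3 most similar genes with a mean of at least 1 CPM. Lmod1, Myom2, Tnnt2, Eln and Smtn called by DESeq2 are named under that rule too. The genes and the 13 lists were chosen with earlier results of these data known. No library copied another of its own group, where the chi-square per gene of each pair was 12.44 to 69.49. Pairs from different groups were not compared in this way.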

Additional observations from a re-analysis of the deposited data

Results flagged for a closer look

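In 6 of 36 groups of values examined, 1 library lay far from the rest of its group, where chance would flag about 1 group in 20. The Tmod2 level of KO day 14 library 1 was 65.58 CPM, below the 76.45 to 79.66 CPM of the other 4 and still above every WT library. The Tmod3 level of WT day 14 library 6 was 200.0 CPM, below the 235.0 to 251.9 CPM of the other 5. That of KO day 14 library 2 was 226.6 CPM, above the 213.5 to 216.6 CPM of the other 4. The length of Map1a implied by counts and FPKM was 7585 bases in WT day 0 library 4, against 10094 to 10202 bases in the other 3. Its Map1a FPKM lay far above theirs, while its CPM lay only slightly above theirs. Lengths below the rest were also implied for Map1a in WT day 14 library 5 (6882 bases, with an FPKM of 2.65, the highest of its group, and 18.69 CPM, the lowest), in WT day 14 library 3 (8995 bases) and in KO day 0 library 2 (9099 bases). In KO day 14 library 4 that length was 10256 bases, against 10114 to 10155 bases. The implied length of Tmod3 was 3431 bases in KO day 14 library 1, against 3452 to 3460 bases.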

How the results depend on the processing

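At day 14, the contrast that chose them, the log2 values over 10 other settings and without each library in turn ran from 0.34 to 0.46 for Map1b and from 0.35 to 0.43 for Tmod2, a description and no support, since the choice fixed their direction. No day 0 or WT day call of these 6 genes was made in any setting. Between the days in KO, DESeq2 called 1 of them, Tmod2, where edgeR called 0. Of the correlations 2 passed with log2(FPKM + 0.1), 0 with the day 14 libraries alone, and 0 to 1 without each library. In the order of levels 4 neighbouring pairs did not overlap with FPKM, 2 with CPM per kb of exon, and 4 to 5 without each library. Signs near 0 turned: with log2(FPKM + 1), with log2(FPKM + 0.1) and with log2(FPKM + 1) without its filter, day 0 values were -0.004, -0.005 and -0.004 for Map1b, -0.003 in each for Tmod1 and -0.016, -0.018 and -0.016 for Tmod2, and WT day values were -0.019, -0.022 and -0.019 for Tmod2 and -0.010 in each for Tmod3. WT day values of Tmod3 were -0.009 with upper-quartile scaling, -0.001 with a stricter filter and -0.003 with limma-voom; KO day values of Tmod1 were -0.006 with upper-quartile scaling, -0.002 with the stricter filter and -0.001 with only the groups compared. The Map1b and Tmod2 correlation was -0.080 at day 14 alone. Without each library, day 0 values ran from -0.031 to 0.108 for Map1b, -0.091 to 0.121 for Tmod1, -0.032 to 0.039 for Tmod2 and -0.100 to 0.011 for Tmod3; WT day values from -0.016 to 0.032 for Tmod2 and -0.022 to 0.043 for Tmod3; KO day values from -0.263 to 0.079 for Map1a and -0.097 to 0.118 for Tmod1; and the Map1b and Tmod2 correlation from -0.116 to 0.285. The causes were not tested. Calls over all genes by edgeR, DESeq2 and limma-voom were 5, 26 and 3 at day 0, 21, 109 and 16 at day 14, 0, 113 and 1 between days in WT, 0, 93 and 0 between days in KO, and 0, 9 and 0 for the difference of effects; without each library edgeR called 2 to 7, 15 to 27, 0 to 22, 0 to 12 and 0 to 1. Car4 lost its call in 3 settings (adjusted p up to 0.0766). No paired analysis was possible because nothing in the labels ties a library of 1 group to a library of another. With 2 day 0 KO libraries, a day 0 difference as large as that of Map1a did not pass over all genes.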
